A study of Homo sapiens with 6 samples.

Results

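The MYC, MAX and MXD network was examined in the human MM.1S line, which derives from multiple myeloma, after loss of the surface enzyme CD38. Its 10 members were taken by symbol from the 60671 genes of a count table, each Ensembl identifier kept once. They were MYC, MAX, the 4 MXD proteins MXD1, MXD3, MXD4 and MXI1, MNT, MLX, MLXIP and MLXIPL. All 10 were found, each as 1 gene, and 9 of them passed the filter on low counts. The CD38 KO group was a single CRISPR/Cas9 knockout clone of MM.1S, and the WT group was the line it came from. According to the labels, cells of either genotype carried GFP and click beetle red luciferase, and living cells were sorted by CD38 staining, CD38-negative ones from the clone and CD38-positive ones from the WT line. Each genotype gave 3 RNA-seq libraries, prepared as biological replicates from the sorted cells. The design text gives the description of the knockout phenotype as the purpose of the comparison. Since the CD38 KO group rests on 1 clone, the p-values set that clone against this WT line and reflect the spread between preparations, not between clones.

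MYC and its relatives are transcription factors of the basic helix-loop-helix leucine zipper class. MYC binds the E-box sequence CACGTG as a heterodimer with MAX and activates genes of growth, ribosome assembly and metabolism. The MXD proteins and MNT compete with MYC for MAX, bind the same E-boxes and recruit SIN3 and histone deacetylases, which repress transcription. MLX is a MAX-like hub that pairs with MLXIP (MondoA) and MLXIPL (ChREBP), sensors of glucose-derived metabolites, and also with some MXD proteins and MNT. Deregulation of MYC is a frequent event in multiple myeloma, in which plasma cells depend on IRF4 and MYC.

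The E-box shared by these factors occurs upstream of several of their own genes. Of the 9 members with a promoter in the RefSeq table used here, all but MYC (build GRCh38.p14, 250 bases before to 50 after the start), 3 held CACGTG. They were MXD4, MNT and MLX, given here with the E-box in capitals because these genes encode repressors or the second hub of the network. Among all 27305 genes with a promoter there, 8.77% held it. By window the counts were 3 of 12 for the members and 7.26% of all 35116. The motif is the same on either strand. The windows lie at chr4:2262320-2262359 (minus strand), chr17:2401226-2401275 (minus strand) and chr17:42567028-42567077 (plus strand), and the first base of the E-box stands 238, 193 and 50 bases before the start.
MXD4: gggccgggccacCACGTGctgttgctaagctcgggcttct
MNT: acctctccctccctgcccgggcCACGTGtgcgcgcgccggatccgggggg
MLX: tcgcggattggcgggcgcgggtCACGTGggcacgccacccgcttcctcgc
Further windows belong to the best known target genes of MLXIP and MLX, TXNIP and ARRDC4. In TXNIP, at chr1:145996629-145996689 (minus strand), the capitals mark a pair of E-box-like hexamers, CACGAG and CACGAG, separated by 5 bases and beginning 88 bases before the start. The pattern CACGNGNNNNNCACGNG was searched on either strand after this promoter had been read, and 0.0570% of all promoter windows held it. In ARRDC4, at chr15:97960471-97960520 (plus strand), the capitals mark CACGTG, 210 bases before the start.
TXNIP: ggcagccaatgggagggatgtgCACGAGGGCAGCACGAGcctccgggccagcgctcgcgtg
ARRDC4: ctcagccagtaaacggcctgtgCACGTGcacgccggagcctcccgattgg
A match describes these letters and does not show binding.

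The libraries held 61515519 to 65709440 counts in CD38 KO and 63606445 to 72335496 in WT. Levels are given as CPM, the count relative to the library size after TMM scaling. The detection floor, taken as 3 counts per library, averaged 0.0486 CPM in CD38 KO and 0.0438 CPM in WT. It accounts for counting error alone, because reads carry no molecular identifiers. CD38 itself was at 0.972 ± 0.322 CPM in CD38 KO and 40.6 ± 1.90 CPM in WT (SD, n = 3 each). Plasma cell markers were abundant, with 9631 to 9672 CPM summed over 10 genes in CD38 KO and 7676 to 7730 CPM in WT. The labels call the cells B lymphoblasts, but the B cell markers MS4A1 and PAX5 averaged at most 0.0215 CPM in either genotype; the 7 B cell markers, mostly CD79B and CIITA, summed to 38.2 to 39.8 CPM in CD38 KO and 62.9 to 69.1 CPM in WT. Marker sums were 59.9 to 64.7 CPM in CD38 KO and 62.9 to 70.3 CPM in WT for T and NK cells, nearly all of it NCAM1, and 1.24 to 1.70 against 2.36 to 3.11 CPM for myeloid cells. The erythroid list, mostly HBB, was at 29.5 to 32.9 CPM in CD38 KO and 23.4 to 23.9 CPM in WT, and the stromal and endothelial list, mostly PDGFRB, at 5.76 to 6.82 and 3.49 to 4.59 CPM. Their part in the results was not tested. Mitochondrially encoded genes took 6.83% to 7.30% of the counts in CD38 KO and 2.63% to 2.71% in WT. In these bulk libraries fewer cells of a kind and less RNA per cell cannot be told apart.

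In CD38 KO cells MYC was moderately lower, the repressors MXI1 and MXD4 were lower too, and MXD3 was higher. MAX, MNT and MLXIP also rose, by smaller amounts, while MXD1 and MLX did not pass the test and MLXIPL was barely detected. By edgeR's quasi-likelihood test at an adjusted p under 0.05, 7 of the 9 tested members changed, 4 higher (MAX, MXD3, MNT, MLXIP) and 3 lower (MYC, MXD4, MXI1). The background is high: 44.4% of the 20120 tested genes were called, 22.8% higher and 21.6% lower. This share takes in genes with few counts. A filter at 1 CPM in 3 libraries tested fewer genes but still called 8053, against 8934 here, so its share called was higher. The members and the lists below were not matched to all tested genes for expression level. Most genes of the members and these lists averaged above 1 CPM, where the share called was higher, so 44.4% is a low background for them. A larger share called among them therefore does not show an excess. The called members changed less in size than called genes in general, with a median of 0.35 against 0.53 on the log2 scale. That comparison was not matched for expression level. The libraries of the genotypes were fully separated in CPM for 7 of the 9 tested members, against 52.5% of all tested genes. With library size alone as the scaling, the log2 fold changes of all genes shifted by a median of -0.0833, and 3632 genes were higher and 5570 lower, against 4592 and 4342 with TMM.

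**Figure D1:**
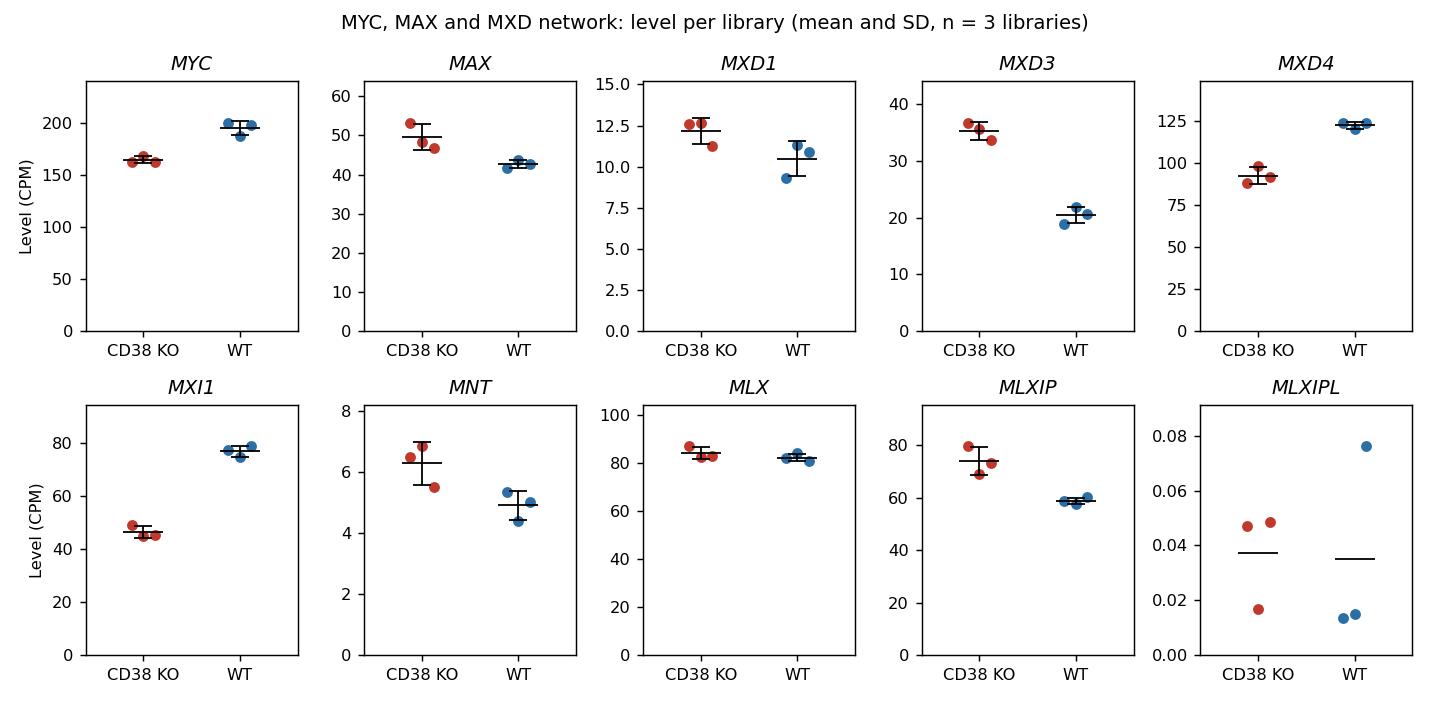
Level of each network member in CPM (vertical axes, starting at 0, scaled per gene) in the 3 CD38 KO and 3 WT libraries; points are libraries in replicate order, the bar is the mean and the whiskers are 1 SD (left out for MLXIPL). The groups separate for MYC, MAX, MXD3, MXD4, MXI1, MNT and MLXIP and overlap for MXD1, MLX and MLXIPL.

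MYC, the activator of the network, is on chromosome 8 (127735434 to 127741434 in GENCODE 29, GRCh38). It stood at 163, 169 and 163 CPM in the CD38 KO libraries, against 200.5, 188 and 198 CPM in the WT libraries. Every CD38 KO library was below every WT library. The level in CD38 KO was 84.3% of that in WT, and the log2 fold change was -0.25 with an SE of 0.0413 (edgeR adjusted p = 4.26e-05), with a 95% interval of -0.33 to -0.16. The call held under all 15 alternatives, at log2 fold changes of -0.33 to -0.23.

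MAX, the obligate partner of MYC, is on chromosome 14 (65006174 to 65102695) and moved the other way. It was at 53.3, 48.4 and 46.8 CPM in CD38 KO and at 41.7, 43.8 and 42.7 CPM in WT. The groups were separate, with CD38 KO replicate 1 above the rest. The log2 fold change was 0.21 ± 0.0588 (SE; edgeR adjusted p = 0.00549). With library size alone it was 0.13 and the call was lost (edgeR adjusted p = 0.0858). Per library, MAX reads over MYC reads, each per kb of exon, gave a ratio of 0.204 ± 0.0154 in CD38 KO and 0.148 ± 0.00878 in WT (SD, n = 3 each), a description with no test. With the median length of protein-coding transcripts in place of all exons, a choice made after seeing the data, the ratio was 0.802 in CD38 KO and 0.584 in WT.

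MXD3, an MXD repressor known for its expression in proliferating cells, had the largest rise among the members (chromosome 5, 177301461 to 177312757). It was at 36.7, 35.6 and 33.6 CPM in CD38 KO and at 18.96, 21.9 and 20.6 CPM in WT. All CD38 KO libraries lay well above all WT libraries. The change was 1.73-fold, or 0.79 on the log2 scale with an SE of 0.0715 (edgeR adjusted p = 9.93e-09), and it was called under all 15 alternatives. The strand setting of the counting is not given, and 18.0% of the MXD3 exon bases are shared with RAB24 on the same strand and 22.5% with PRELID1 on the other strand. Both neighbours fell, RAB24 to 23.9 ± 1.26 CPM in CD38 KO against 32.5 ± 0.173 CPM in WT, and PRELID1 to 122 ± 5.09 CPM in CD38 KO against 152 ± 1.34 CPM in WT (SD, n = 3 each; edgeR adjusted p = 1.10e-05 and 3.19e-06).

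MXI1 and MXD4, repressors associated with differentiated and resting cells, both fell. MXI1 (chromosome 10, 110207605 to 110287365) was at 48.9, 44.7 and 45.2 CPM in CD38 KO and at 77.0, 74.4 and 78.5 CPM in WT. Its level in CD38 KO was 60.4% of that in WT, with a log2 fold change of -0.73 and an SE of 0.0528 (edgeR adjusted p = 2.98e-10), the largest fall among the members. MXD4 (chromosome 4, 2247432 to 2262294) was at 87.97, 97.95 and 91.5 CPM in CD38 KO and at 123, 120 and 124 CPM in WT. For both genes each CD38 KO library was below each WT library. The log2 fold change of MXD4 was -0.41 ± 0.0467 (SE; edgeR adjusted p = 3.30e-07), and both calls held under all 15 alternatives.

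MXD1, the founding MXD repressor, did not pass the test. It was at 12.6, 12.7 and 11.3 CPM in CD38 KO and at 9.31, 11.3 and 10.9 CPM in WT (chromosome 2, 69897688 to 69942945). The lowest CD38 KO library and the highest WT library were at nearly the same level. The log2 fold change was 0.22, with an unadjusted 95% interval of 0.0073 to 0.42 and an edgeR adjusted p of 0.0881.

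MNT, the broadly expressed repressor that antagonizes MYC, was the weakest call. It was at 6.51, 6.84 and 5.51 CPM in CD38 KO and at 5.34, 4.39 and 5.01 CPM in WT (chromosome 17, 2384060 to 2401118). The groups did not overlap, but the lowest CD38 KO library was close to the highest WT library. The log2 fold change was 0.35 ± 0.133 (SE; edgeR adjusted p = 0.0357). The call was lost in 6 of 15 alternatives: without CD38 KO replicate 1 (adjusted p = 0.0629) or 2 (0.122), without WT replicate 2 (0.158) or 3 (0.0774), with library size alone (0.104) and with no filter (0.0574). An antisense gene shares 12.2% of the MNT exon bases.

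Of the MLX branch, the glucose-responsive MLXIP rose, its partner MLX did not pass the test and MLXIPL averaged below the detection floor in both genotypes. MLXIP (chromosome 12, 122078722 to 122147347) was at 79.6, 68.9 and 73.3 CPM in CD38 KO and at 58.6, 57.8 and 60.1 CPM in WT. All CD38 KO libraries were above the WT libraries, and they were more scattered. The log2 fold change was 0.33 ± 0.0549 (SE; edgeR adjusted p = 3.99e-05), called under all 15 alternatives. MLX (chromosome 17, 42567068 to 42573239) was at 86.8, 82.5 and 82.9 CPM in CD38 KO and at 81.9, 83.9 and 80.7 CPM in WT. These groups overlapped, the log2 fold change was 0.033 (edgeR adjusted p = 0.606) and its 95% interval ran from -0.063 to 0.13. With PSMC3IP on the other strand MLX shares 18.1% of its exon bases, and PSMC3IP was at 10.01 ± 0.554 CPM in CD38 KO and 12.9 ± 0.0517 CPM in WT (SD, n = 3 each; log2 fold change -0.36). MLXIPL, which is best known from liver and fat, had 3, 1 and 3 counts in CD38 KO and 1, 1 and 5 in WT, too few for a test (chromosome 7, 73593194 to 73624543).

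**Figure D2:**
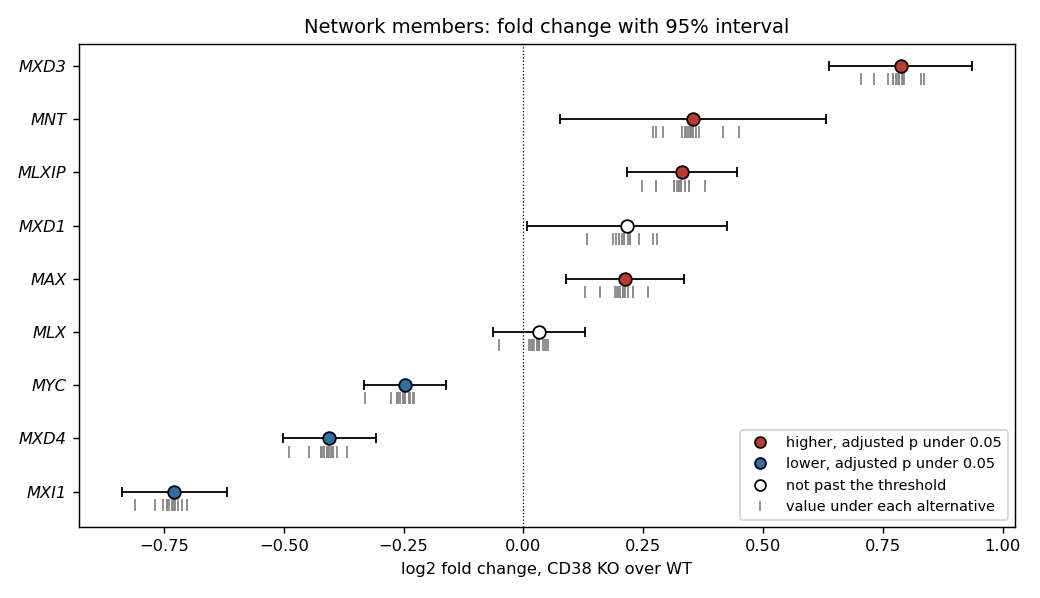
Log2 fold change of CD38 KO over WT (horizontal axis) for the 9 tested members; circles are edgeR estimates with 95% intervals, filled where the adjusted p is under 0.05, and ticks below each circle are the values under the alternatives. MXD3 at 0.79 and MXI1 at -0.73 lie farthest from 0.

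Per kb of exon, MYC was the most abundant member in either genotype. Levels of different genes were set on a common scale by dividing CPM by the length of all exons of the gene in GENCODE 29. MYC was at 54.9 ± 1.18 CPM per kb in CD38 KO and 65.2 ± 2.22 in WT (SD, n = 3 each). MLX came next, at 19.7 ± 0.559 in CD38 KO and 19.3 ± 0.381 in WT. In CD38 KO the order then ran MXD4 (13.1), MAX (11.2), MXI1 (10.04), MXD3 (6.86), MLXIP (5.32), MXD1 (1.92), MNT (0.720) and MLXIPL (0.0078). In WT it ran MXD4 (17.3), MXI1 (16.6), MAX (9.65), MLXIP (4.23), MXD3 (3.97), MXD1 (1.65), MNT (0.563) and MLXIPL (0.0073). The neighbours MAX and MXI1 overlapped between libraries in CD38 KO, and MXD4 and MXI1 as well as MLXIP and MXD3 overlapped in WT. The order below MYC depended on the length used. With the median transcript length, MAX was second in both genotypes, at 64.7 CPM per kb in CD38 KO and 55.9 in WT. In CD38 KO the order after MAX was MLX (34.6), MXD3 (23.4), MXD4 (22.8), MXI1 (21.1), MLXIP (14.5), MNT (2.24) and MXD1 (2.18). In WT the order after MAX was MXI1 (35.0), MLX (33.8), MXD4 (30.2), MXD3 (13.6), MLXIP (11.5), MXD1 (1.88) and MNT (1.75). MLXIPL was last with either length.

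**Figure D3:**
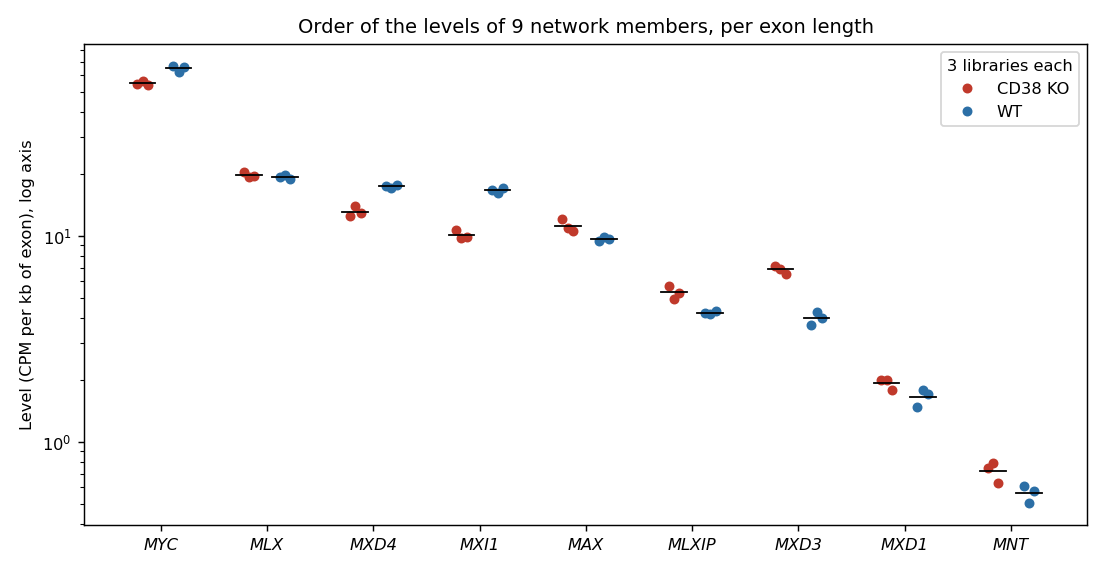
Level in CPM per kb of exon (vertical log axis) of 9 members in the 3 CD38 KO and 3 WT libraries, ordered by the WT mean; points are libraries and bars are means. MYC is highest in either genotype, the order below it depends on the length used, MLXIPL is left out, and MXD3 and MXI1 approach each other in CD38 KO.

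The make-up of the repressor arm differed between the genotypes. Of the summed level of MXD1, MXD3, MXD4, MXI1 and MNT per kb of exon, MXD3 held 21.0% ± 0.557 in CD38 KO and 9.89% ± 0.752 in WT, and MXI1 held 30.8% ± 1.55 in CD38 KO and 41.4% ± 0.611 in WT (SD, n = 3 each). MXD4 held the largest share in both genotypes, 40.1% in CD38 KO and 43.2% in WT. With the median transcript length MXD3 held 32.6% in CD38 KO and 16.5% in WT, MXI1 29.5% in CD38 KO and 42.5% in WT, and MXD4 31.8% in CD38 KO and 36.6% in WT. The difference between genotypes had the same direction with either length for these 3 genes, while their rank within a genotype did not hold. The ratio of MXD3 to MXI1 was 0.683 ± 0.0261 in CD38 KO and 0.239 ± 0.0217 in WT, and that of MLXIP to MLX 0.269 ± 0.0127 in CD38 KO and 0.219 ± 0.00868 in WT (SD, n = 3 each). With the median transcript length they were 1.11 in CD38 KO and 0.388 in WT for MXD3 to MXI1, so that MXD3 was then the more abundant of the pair in CD38 KO, and 0.419 in CD38 KO and 0.341 in WT for MLXIP to MLX. The summed repressors over MYC came to 0.594 ± 0.0109 in CD38 KO and 0.617 ± 0.0177 in WT (SD, n = 3 each). With the median transcript length this ratio was 0.889 in CD38 KO and 0.861 in WT, so the order of the genotypes turned round with the length used. Gene length cancels when the ratio of a single pair of genes is compared between genotypes.

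The neighbourhoods of the members showed mixed calls. Of all tested genes 44.4% were called, 22.8% higher and 21.6% lower, and the counts of neighbours were not tested against these shares. Among the 5 tested protein-coding genes on each side, MYC had 2 higher and 3 lower, MXI1 3 higher and 2 lower, MXD4 4 higher and 2 lower, MXD3 4 higher and 3 lower, MAX 2 higher and 3 lower, MLX 4 higher and 4 lower, and MLXIPL 3 higher and 2 lower. The span of the 10 genes differed, from 355 kb around MLX to 7122 kb around MYC. The most changed of the MYC neighbours was SQLE, which encodes the sterol synthesis enzyme squalene epoxidase, at 1.74 ± 0.672 CPM in CD38 KO and 39.6 ± 1.95 CPM in WT (SD, n = 3 each; edgeR adjusted p = 1.46e-08). By start coordinate SQLE lies 2736937 bases before MYC. Around MLXIP 5 of 10 were higher and 1 lower, with a median log2 fold change of 0.34, while 19.1% of the tested genes of chromosome 12 were higher and 31.3% lower. Of those higher around MLXIP, RHOF, CFAP251 and B3GNT4 averaged under 1 CPM in either genotype (0.915, 0.284 and 0.554 CPM in CD38 KO). The others were CLIP1 (104 CPM in CD38 KO, 80.9 CPM in WT) and ZCCHC8 (27.7 CPM in CD38 KO, 22.3 CPM in WT). Around MNT 5 were higher and 2 lower (median 0.17), on a chromosome with 27.2% of its tested genes higher and 14.8% lower, and around MXD1 5 were higher and 1 lower (median 0.21), on a chromosome with 19.4% higher and 24.9% lower. PVT1, the noncoding RNA gene beside MYC, was at 51.4, 43.3 and 46.2 CPM in CD38 KO and at 49.7, 52.2 and 51.0 CPM in WT. These overlapped, and its log2 fold change of -0.12 was not past the threshold (edgeR adjusted p = 0.129), but it was with library size alone (-0.20, edgeR adjusted p = 0.0120) and without CD38 KO replicate 1 (-0.19, edgeR adjusted p = 0.0147).

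The genes with profiles most like that of MYC over the 6 libraries, by Euclidean distance of centred log2 CPM, were the methionyl-tRNA synthetase MARS1 (distance 0.0152, log2 fold change -0.24), PACS1 (0.0358, -0.23) and the translation initiation subunit EIF3B (0.0368, -0.27). For MXD3 they were the chromatin protein HMGB3 (0.0897, log2 fold change 0.80), CCSAP (0.114, 0.84) and the calcium channel subunit CACNB1 (0.124, 0.86). Such a distance mostly follows the difference between the genotypes, so a similar log2 fold change was built into the choice. Shared regulation was not tested.

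Other proteins that bind MAX or E-boxes moved in both directions. Of 10 such factors, 2 rose and 4 fell, or 60% called, against 44.4% of all tested genes called, 22.8% higher and 21.6% lower. BHLHE40, a repressor induced by many stimuli, was at 52.98 ± 2.34 CPM in CD38 KO and 12.4 ± 0.699 CPM in WT, whereas its paralog BHLHE41 was at 31.8 ± 1.97 CPM in CD38 KO and 64.2 ± 1.29 CPM in WT (SD, n = 3 each; log2 fold changes 2.10 and -1.01, edgeR adjusted p = 8.90e-16 and 6.00e-12). MGA, which pairs with MAX in a repressive complex, was at 24.996, 23.5 and 28.3 CPM in CD38 KO and at 40.3, 39.2 and 40.3 CPM in WT. It fell by a log2 fold change of 0.64 in size (edgeR adjusted p = 1.57e-07). TFE3, a lysosomal and metabolic regulator, rose (log2 fold change 0.31). USF2 fell (-0.27), a call lost without CD38 KO replicate 3 (adjusted p = 0.0571). The MYC paralogs, named after their values were seen, were low: MYCL at 5.31 ± 0.858 CPM in CD38 KO and 7.03 ± 0.946 CPM in WT, and MYCN at 0.522 ± 0.158 CPM in CD38 KO and 0.370 ± 0.0903 CPM in WT (SD, n = 3 each). MYCL was called lower (log2 fold change -0.40, edgeR adjusted p = 0.0242), although its libraries overlapped between the genotypes. MYCN was not past the threshold (edgeR adjusted p = 0.338).

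Corepressors of the MXD proteins and MNT were called in 12 of 16 cases (75%, against 44.4% of all tested genes), 8 higher and 4 lower. Subunits of the SIN3 complex went both ways. SAP18, ING1 and SUDS3 rose (log2 fold changes 0.58, 0.39 and 0.32), while the histone chaperone RBBP7 fell (-0.21). ARID4B, ING2 and RBBP4, named after their values were seen, also fell (-0.34, -0.31 and -0.11). SIN3A rose only slightly, to 53.5 CPM in CD38 KO against 47.6 CPM in WT (log2 fold change 0.17, edgeR adjusted p = 0.0241), and is named after its values were seen. With library size alone 5 were higher and 4 lower. Of 17 MYC coactivators 4 rose and 1 fell, which is 29.4% called, against 44.4% of all tested genes. SMARCB1 and RUVBL2, subunits of chromatin remodelling complexes, rose by 0.50 and 0.41. The elongation kinase CDK9 fell (-0.28). PAF1 rose by 0.17, a call lost with library size alone (adjusted p = 0.140). That scaling gave 3 higher and 4 lower in the list.

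Of 27 tested regulators of MYC RNA or protein stability, 13 rose and 4 fell, or 63% called, against 44.4% of all tested genes. All tested genes were not matched to this list for expression level. The mitotic kinases PLK1 and AURKA, both reported to stabilize MYC family proteins, rose to 205 ± 8.76 and 97.1 ± 2.78 CPM in CD38 KO against 59.5 ± 0.891 and 33.0 ± 2.12 CPM in WT (SD, n = 3 each; log2 fold changes 1.78 and 1.56). PIM1, a kinase that phosphorylates and stabilizes MYC, was at 30.1, 30.5 and 30.0 CPM in CD38 KO and at 74.5, 75.0 and 73.4 CPM in WT. The groups were far apart, with a log2 fold change of -1.30 (edgeR adjusted p = 1.80e-14). PIM2, of the same list and named after its values were seen, was far more abundant than PIM1 and rose. It was at 6937 ± 80.2 CPM in CD38 KO and 5138 ± 85.8 CPM in WT (SD, n = 3 each). Its log2 fold change was 0.43 (edgeR adjusted p = 2.21e-10). ZFP36 and ZFP36L1, which promote decay of AU-rich mRNAs, rose by 0.78 and 1.30. The RNA-binding protein IGF2BP3, named after its values were seen, was low but higher in CD38 KO, at 1.72 ± 0.252 CPM against 0.386 ± 0.281 CPM in WT (SD, n = 3 each). FBXW7, the ubiquitin ligase subunit that targets MYC, was at 97.7 ± 2.78 CPM in CD38 KO and 96.5 ± 2.19 CPM in WT (SD, n = 3 each; edgeR adjusted p = 0.791), and is named after its values were seen.

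Of 19 tested regulators of MYC transcription, 7 rose and 5 fell, or 63.2% called, against 44.4% of all tested genes. STAT3, an activator downstream of interleukins, was at 342, 346 and 343 CPM in CD38 KO and at 157, 152 and 157 CPM in WT. The libraries of each genotype lay close together, and the log2 fold change was 1.14 (edgeR adjusted p = 1.09e-15). BCL6, a B cell repressor, rose to 10.8 ± 0.731 CPM in CD38 KO against 5.72 ± 0.490 CPM in WT (SD, n = 3 each). IKZF1, E2F1 and STAT5B fell by log2 fold changes of 0.88, 0.56 and 0.42 in size. IRF4, which activates MYC in myeloma and is named after its values were seen, rose by 0.18 (edgeR adjusted p = 0.000355). PRDM1 and IKZF3 of the same list, also named after their values were seen, rose by 0.23 and 0.26 (edgeR adjusted p = 1.39e-05 and 2.80e-05).

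Among genes known to be activated by MYC, more fell than rose. Of 61 tested, 27 fell and 12 rose (63.9% called), against 21.6% lower and 22.8% higher among all tested genes. The list median was -0.10 on the log2 scale against 0.00021 for all tested genes. With library size alone 37 fell and 7 rose, and the median was -0.19. That scaling shifted all genes by a median of -0.0833, with 5570 lower and 3632 higher among all tested genes. The ribosome assembly factor UTP20 was at 18.96, 15.6 and 17.5 CPM in CD38 KO and at 48.3, 49.6 and 50.7 CPM in WT. All its CD38 KO libraries were far below those of WT. The cell cycle kinase CDK4 fell to 82.1 ± 5.96 CPM in CD38 KO against 143 ± 1.72 CPM in WT, and the polyamine enzyme ODC1 to 545 ± 27.6 CPM in CD38 KO against 780 ± 11.2 CPM in WT (SD, n = 3 each). The lactate dehydrogenase LDHA rose to 1095 ± 29.6 CPM in CD38 KO against 766 ± 19.8 CPM in WT (SD, n = 3 each). Of the 49 genes of this list with a promoter in the RefSeq table, 25 held CACGTG (51.0%, against 8.77% of 27305 genes). Of these 25, 7 rose and 7 fell, and of the 24 without it 2 rose and 15 fell. That difference was not tested.

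Genes known to be repressed by MYC were split, with 5 of 14 tested higher and 5 lower (71.4% called, against 44.4% of all tested genes). CDKN1B (p27), an inhibitor of cyclin-dependent kinases, was at 29.4 ± 1.54 CPM in CD38 KO and 19.2 ± 0.590 CPM in WT (SD, n = 3 each; log2 fold change 0.61). The antiproliferative gene BTG2, the stress gene GADD45B and the secreted chaperone CLU rose by 0.47, 0.46 and 0.39, while the zinc finger factor KLF6 fell (-0.46).

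**Figure D4:**
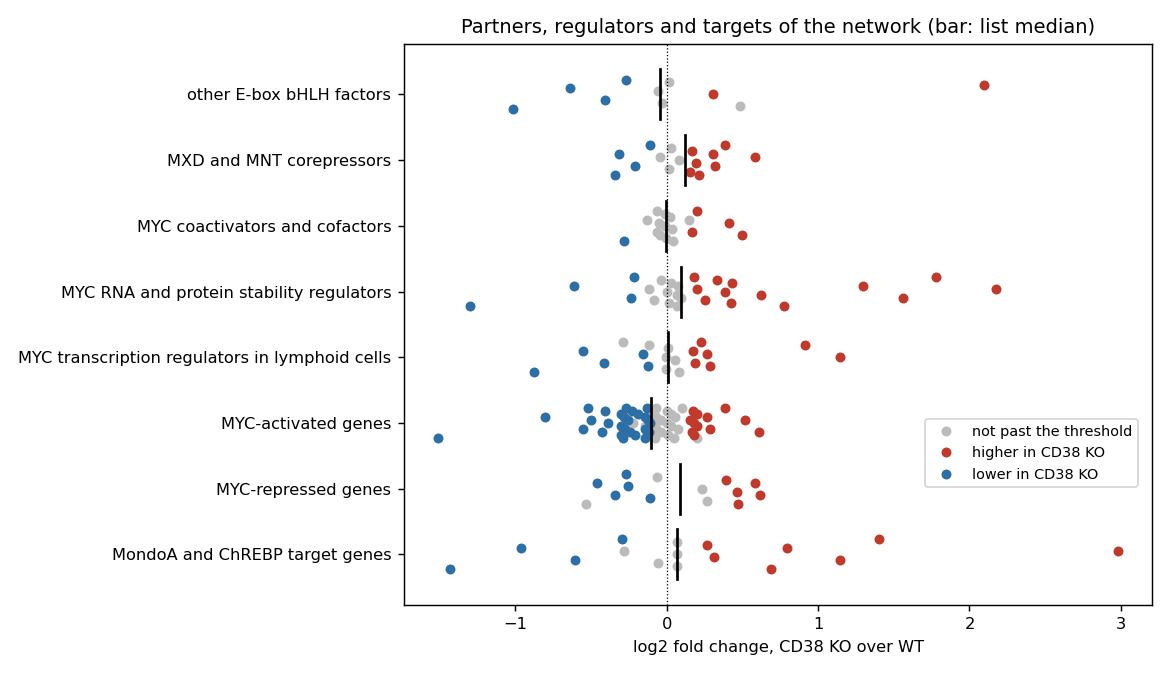
Log2 fold change of CD38 KO over WT (horizontal axis) for every tested gene of 8 lists of partners, regulators and targets of the network; each point is a gene, coloured by its edgeR call, vertical jitter has no meaning and the black bar is the list median. The MYC-activated genes, with 27 lower and 12 higher, have their median at -0.10.

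Target genes of MLXIP and MLXIPL, whose partner is MLX, did not move as a block. Calls went both ways, with 7 of the 16 tested genes higher and 4 lower (68.8% called, against 44.4% of all tested genes). TXNIP, an arrestin-like inhibitor of glucose uptake and the best known MLXIP target, was at 120, 121 and 117 CPM in CD38 KO and at 317, 323 and 327 CPM in WT. Every CD38 KO library was far below the WT libraries, although MLXIP itself was higher there. The log2 fold change of TXNIP was -1.43 ± 0.0390 (SE; edgeR adjusted p = 4.21e-17). Its relative ARRDC4 had only 44, 14 and 20 counts in CD38 KO and 71, 54 and 44 in WT, with a log2 fold change of -0.96 (edgeR adjusted p = 0.0421). The ARRDC4 value was -1.54 without CD38 KO replicate 1, and the call was lost without CD38 KO replicate 2 (adjusted p = 0.159) or 3 (0.147), without WT replicate 1 (0.154) or 2 (0.0822) and with DESeq2 (0.0562). KLF11 fell by a log2 fold change of 0.60 in size.

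The lipid synthesis enzymes SCD and ACACA, which SREBP factors also activate, were higher in CD38 KO (log2 fold changes 1.14 and 0.69). FGF21, a secreted metabolic hormone, was at 5.49, 4.71 and 4.44 CPM in CD38 KO and at 0.689, 0.543 and 0.609 CPM in WT. It was low in both genotypes but separated them clearly (log2 fold change 2.98, edgeR adjusted p = 7.86e-11).

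**Figure D5:**
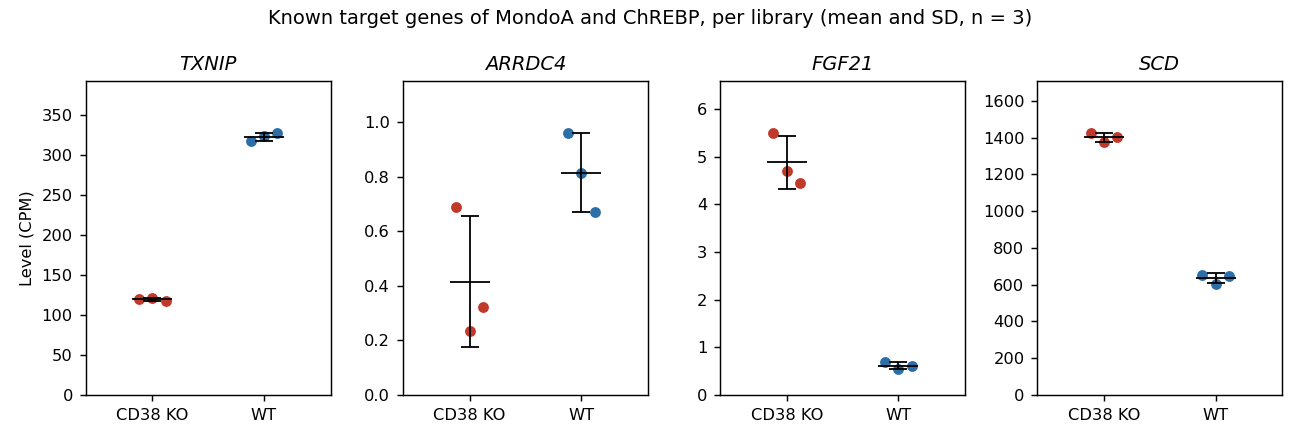
Level in CPM (vertical axes, starting at 0, scaled per gene) of 4 known target genes of MondoA (MLXIP) and ChREBP (MLXIPL) in the 3 CD38 KO and 3 WT libraries; points are libraries, the bar is the mean and the whiskers are 1 SD. TXNIP is lower in every CD38 KO library, FGF21 and SCD are higher, and the ARRDC4 groups overlap.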

How the data were processed

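Raw read counts per gene, deposited by the authors as 1 table with 1 column per library, were the only values used. Per the submitters' processing notes, STAR 2.7.9a, Partek and DESeq2 were used; which did what is not given there, nor are the build, annotation, read counter or strandedness in the sources used here. Per the labels' protocols, 10 ng of total RNA went into each SMARTer Ultra Low library. The table has 60871 lines, and 200 second copies of an Ensembl identifier were dropped. The genotypes were compared with edgeR 4.0.16 under R 4.3.3 (TMM factors, filterByExpr, robust quasi-likelihood test, no covariate), and p-values were adjusted over all 20120 tested genes by the Benjamini-Hochberg method. Alternatives included DESeq2 1.42.0 and limma-voom (limma 3.58.1). Every library pair differed by more than sampling noise (chi-square per degree of freedom at least 5.49).

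The members and the lists (243 entries, 242 found) were chosen with earlier results of these data known. The lists were written from general knowledge, and no set test was run. The share called in a list was set beside that of all tested genes without matching for expression level. Named are CD38, all members, up to 5 genes of each list with the smallest adjusted p, TXNIP, ARRDC4, PVT1, the neighbours of members, and for MYC and MXD3 (the member with the largest change) the 3 nearest profiles among protein-coding genes at a mean of 5 CPM or more; other genes are named after their values were seen. Some genes that this rule would name are not reported here. Coordinates and exon lengths are from GENCODE 29, which may differ from the authors' annotation. Promoters are from RefSeq. The test was checked on simulated counts, where it recovered 34% of genes changed 1.2-fold, 76% at 1.5-fold, 88% at 2-fold and 100% at 4-fold. The genes changed there, 50 per fold change, had a WT mean of at least 1 CPM. That simulation called 155 genes, far fewer than were called in the data, and 3.87% of them had not been changed. With so few changed genes the adjustment is stricter, so these recoveries do not give the power of the test in the data.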

Additional observations from a re-analysis of the deposited data

How the results depend on the processing

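Of the 9 tested members, MYC, MXD3, MXD4, MXI1 and MLXIP were called with the same direction under all 15 alternatives, and MXD1 and MLX under none; MLX was at -0.051 with library size alone and above 0 otherwise. The MAX call was lost with library size alone (log2 fold change 0.13). The MNT call was lost with library size alone (0.27) and with no filter (0.34). It was also lost without CD38 KO replicate 1 or 2 and without WT replicate 2 or 3, but held without CD38 KO replicate 3 or WT replicate 1. On leaving out each library in turn, the MNT log2 fold change ran from 0.28 to 0.45. Members called numbered 5 to 7, the lowest with library size alone, and genes called 7767 to 9202. Same-numbered libraries did not deviate together (r of 0.034, -0.0080 and -0.021 for numbers 1, 2 and 3), and the main test did not pair them. With 3 libraries a group, such a check cannot settle whether the numbers stand for shared preparations. With the replicate block 8918 genes and 7 members were called. MLXIPL had no value except with no filter (log2 fold change 0.095, edgeR adjusted p = 0.980). Levels per kb, shares and ratios between members moved with the length used for each gene. The 95% intervals of MXD1 and MLX set what 3 libraries a group could resolve, and a missed threshold does not show equal levels.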
